A study of Mus musculus with 2 samples.

Results

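Cells with high RNA of Cxcl13, Cpxm2, Ltbp2 and Emb were examined among the stromal cells of gonadal white adipose tissue (gWAT) of old mice. Both groups came from 18-month-old p16-CreERT2/R26-LSL-tdTomato male mice that had received tamoxifen, so each carried the p16-driven CreERT2 and the Rosa26 reporter, and the sorted cells were CD31- CD45-. The Tom+ group held the cells with tdTomato fluorescence and the Tom- group the cells without it, with 1 droplet library each. tdTomato marks cells in which the p16 promoter drove the recombinase while tamoxifen was present, and it stays on afterwards, so Tom+ is a record of p16 activity rather than a measure of it at the time of sorting. The number of mice in each library is not given in the sources used here.

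Every cell was given a score, the mean over the 4 genes of the natural log of 1 plus its UMIs per 10000. UMIs are unique molecular identifiers, which count RNA molecules. The scored cells, called the gate here, had over 1000 and under 7000 genes, under 8% mitochondrial UMIs, and few UMIs of mesothelial genes, immunoglobulin genes, Calca with Ncam1, and Pi16 with Dpp4. The gate held 2819 Tom+ and 4191 Tom- cells, 7010 of the 10241 cells that passed the limits on genes and mitochondrial UMIs and of the 17404 barcodes in the files. The 400 highest scores were taken over both libraries together, and they belonged to 78 Tom+ and 322 Tom- cells, called high-scoring cells below and members in the plots. They are compared with the other 6610 cells of the gate. The score chose the cells, so the levels of the 4 genes describe the choice, and differences in other genes describe the chosen cells without a test. With 1 library per group there is no replicate, no p-value is given, and every interval is a 95% interval that covers counting error only.

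Cxcl13 is a chemokine that draws B cells through their receptor Cxcr5, and stromal cells of lymphoid follicles are its best known source. Cpxm2 is a secreted protein of the carboxypeptidase E family that lacks the residues needed for catalysis. Ltbp2 binds fibrillin microfibrils of the extracellular matrix and, unlike its relatives, does not bind latent TGF-β. Emb (embigin) is a membrane glycoprotein that accompanies monocarboxylate transporters to the cell surface. In adipose tissue, stromal cells include the adipocyte progenitor cells (APCs), which build matrix and become adipocytes, and some of them secrete cytokines and chemokines instead.

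On the GRCm38 assembly, Cxcl13 (ENSMUSG00000023078) lies on chromosome 5 from 95956951 to 95961068, and Cpxm2 (ENSMUSG00000030862) on chromosome 7 from 132032687 to 132154739. Ltbp2 (ENSMUSG00000002020) lies on chromosome 12 from 84783212 to 84876532, and Emb (ENSMUSG00000021728) on chromosome 13 from 117208536 to 117274415.

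The high-scoring cells were not all stromal. At least 5 UMIs of 14 macrophage and T cell markers were found in 13 of the 78 high-scoring Tom+ cells (16.7%, 9.18 to 26.8) and in 9 of the 322 from the Tom- library (2.80%, 1.29 to 5.24), against 1.64% and 0.956% of the other gate cells. These 22 cells had a median of 6 (Tom+) and 4 (Tom-) UMIs over Dcn, Lum, Col1a1, Col1a2 and Col3a1, genes of the stromal matrix, and the others had 311 and 323. Over the 8 genes of a macrophage list, led by Lyz2 and with none at 0, the summed level was 1701 UMIs per 1000000 (CPM) in Tom+ high-scoring cells and 266 in the other Tom+ cells. In the Tom- library it was 31.8 and 60.7 CPM. A list of 6 T cell genes, led by Cd3g and with none at 0, summed to 102 against 5.31 CPM in Tom+ and 16.3 against 4.30 CPM in Tom-. Without the cells with immune markers, the macrophage sum was 21.8 against 19.4 CPM in Tom+ and 21.3 against 15.9 CPM in Tom-, and the T cell sum 1.28 against 0.661 CPM and 0.828 against 0.702 CPM. The 8 and 6 genes of these lists are the 14 markers by which the cells were left out, so these sums fell by construction. The 7 endothelial genes, led by Lyve1 and with Cldn5 at 0, summed to 44.3 CPM in the Tom+ high-scoring cells against 12.5 CPM, and to 15.5 against 19.6 CPM in the Tom- library. Without the cells with immune markers these sums were 20.5 against 11.1 CPM and 15.5 against 19.6 CPM. Of the B and plasma cell genes, Igkc, the most abundant, was at 662 against 516 CPM in the Tom+ library and 194 against 176 CPM in the Tom- library, and Cd79b and Ms4a1 were at 0 in the high-scoring cells. Mesothelial genes, which the gate limits, summed to 382 against 185 CPM and 459 against 287 CPM, nearly all of it Wt1 (371 against 176 CPM and 428 against 253 CPM). The other 7 mesothelial genes summed to 11.1 against 8.26 CPM in Tom+ and 31.6 against 33.3 CPM in Tom-, with Upk3b at 0 in the Tom+ high-scoring cells. Schwann, adipocyte and epithelial lists summed to under 5 CPM in the high-scoring cells of either library, with Adipoq, Cidec and Lep at 0. The part of these cell types in the results was not tested beyond leaving out the 22 cells.

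The libraries also shared barcodes. Of all barcodes, 2224 were listed in both libraries, and 6 of the high-scoring cells had a barcode that the other library listed too, at a median of 955 UMIs there. No high-scoring cell had the same barcode in both libraries.

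High scores were scarcer among Tom+ cells. High-scoring cells made up 2.77% (2.19 to 3.44) of the gate in the Tom+ library and 7.68% (6.90 to 8.53) in the Tom- library. Tom+ cells were 19.5% (15.7 to 23.7) of the high-scoring cells and 40.2% of the gate. Without the 22 cells with immune markers, the share was 17.2%. Depth was alike among high-scoring cells, at a median of 11070.5 UMIs per Tom+ cell and 11022 per Tom- cell, while the other gate cells had 14015 and 11036. With every cell thinned to 5000 UMIs before scoring, Tom+ cells were 22.8% of the 400. Fewer cells of a kind in one library cannot be told apart from a difference in sorting or preparation.

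The score had no gap at which the cells separated. All 4 genes were at 0 UMIs in 77.1% of the Tom+ and 62.7% of the Tom- gate cells, and cells were found in every bin of 0.1 from there to 1.2 in both libraries. The last 20 cells taken scored 0.591 to 0.602 and the first 20 left out 0.581 to 0.591, and Cpxm2 was found in 70% of the former and 95% of the latter.

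**Figure D1:**
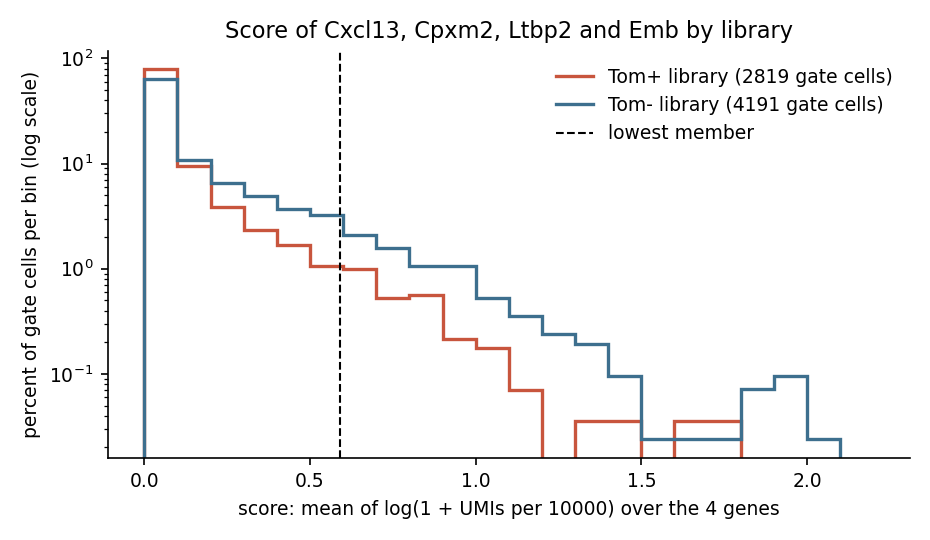
Percent of the gate cells of each library (vertical axis, log scale) in bins of the score (horizontal axis). The line marks the lowest high-scoring cell at 0.591; both libraries fall off without a break there, and the Tom- library lies above the Tom+ library from a score of 0.1 to 1.6.

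The 4 genes rarely occurred together. Of the 400 cells, 10 had UMIs of all 4 genes, 77 of 3, 204 of 2 and 109 of 1. The most common combination was Cpxm2 with Ltbp2, in 80 cells, followed by Cpxm2 with Emb in 67 and Cpxm2 alone in 66. Cxcl13 was found in 20 of the 78 high-scoring Tom+ cells (25.6%) and 104 of the 322 from Tom- (32.3%), and Cpxm2 in 55 (70.5%) and 252 (78.3%). Ltbp2 was found in 30 Tom+ and 134 Tom- cells, and Emb in 27 and 166. Across the gate cells of a library, the log levels of Cxcl13 and Cpxm2 had a Pearson r of -0.0067 in Tom+ and 0.010 in Tom-, and those of Cpxm2 and Ltbp2 0.19 and 0.21. These correlations are over cells of 1 library, which share depth and free RNA.

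**Figure D2:**
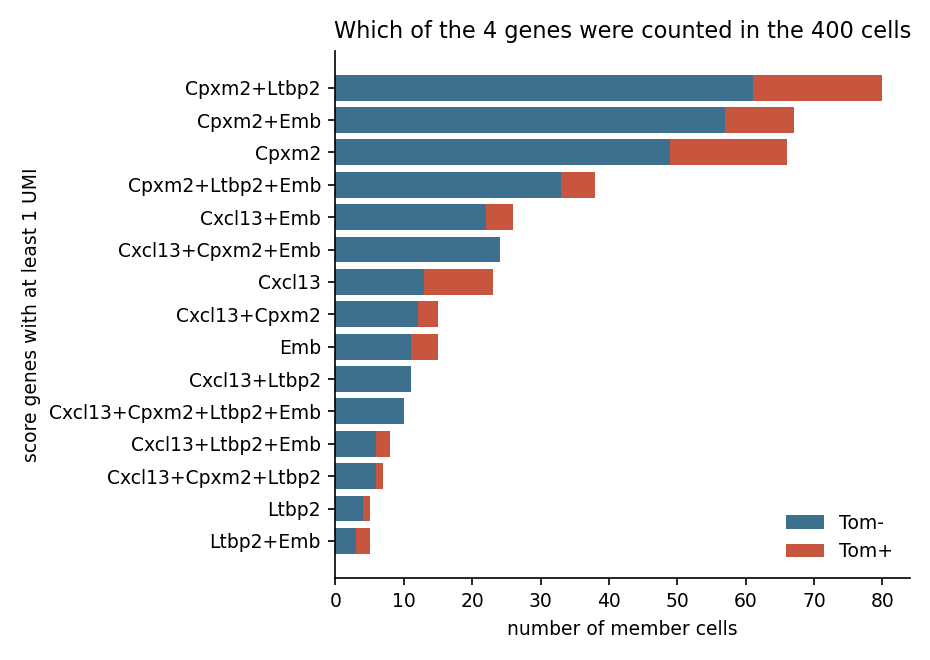
Number of high-scoring cells (horizontal axis) for each combination of the 4 genes with at least 1 UMI (vertical axis), coloured by library. Combinations with Cpxm2 and without Cxcl13 lead, and 10 cells, all Tom-, carried the 4 genes together.

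Cxcl13 RNA sat in a few cells with very much of it. In the Tom+ library, the 10 richest of the 20 positive cells held 95.4% of the 1383 Cxcl13 UMIs, with 536, 355 and 145 UMIs in the top cells. In the Tom- library, the 10 richest of 104 held 66.5% of 5015 UMIs, and the top cells had 668, 528 and 407. In the other gate cells no cell exceeded 11 (Tom+) or 19 (Tom-) Cxcl13 UMIs. The level of Cxcl13 was 1533 CPM in the Tom+ high-scoring cells and 1364 CPM in the Tom- ones, against 2.55 and 7.55 CPM in the others. With the cells with immune markers left out it was 994.5 CPM (775 UMIs) in Tom+ and 1384 CPM in Tom-, so the order of the libraries turned. Other cells were read for comparison, since free RNA can give a cell a single UMI. After thinning, a Cxcl13 UMI was found in 22.5% (Tom+) and 25.6% (Tom-) of high-scoring cells, and in 0.987% and 2.57% of the other gate cells. In cells with mesothelial genes, left out of the gate, it was found in 3.15% and 1.71%, at median depths before thinning of 17891 and 14678 UMIs. The share among other gate cells was below that in Tom+, and in Tom- the intervals overlapped (2.08 to 3.14 and 1.18 to 2.41), so it is not read as expression. Thinning left out 7 Tom+ and 33 Tom- high-scoring cells, and the shares before it were 25.6% and 32.3%.

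Cpxm2 was spread more evenly. Its level was 616 CPM in the Tom+ high-scoring cells and 653 CPM in the Tom- ones, and 19.0 and 38.1 CPM in the others. The highest cell had 36 UMIs in Tom+ and 53 in Tom-. Ltbp2 was at 108 and 118 CPM against 6.18 and 9.21 CPM, and Emb at 201 and 187 CPM against 6.13 and 20.1 CPM. Without the cells with immune markers, Cpxm2 was at 695.5 and 651 CPM, Ltbp2 at 124.5 and 118 CPM, and Emb at 110 and 172 CPM. The order of the libraries turned for each. For Cpxm2 and Ltbp2, the interval of the ratio between libraries included 0 both with and without these cells.

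Each gene was also read in cells that the other 3 had chosen. Among 400 cells picked without Cxcl13, a Cxcl13 UMI was found in 5.06% (1.40 to 12.5) of Tom+ and 9.97% (6.92 to 13.8) of Tom- cells, against 2.77% and 6.98% of the others, and the intervals of these shares overlap (2.19 to 3.46 and 6.19 to 7.83 for the others). Its level was 161 against 33.5 CPM and 486 against 80.6 CPM, carried by few cells. Cpxm2, left out in turn, was found in 28.8% and 43.1% of the cells the other genes chose, against 12.9% and 21.0%. Ltbp2 was found in 17.1% and 26.9% against 5.29% and 6.10%, and Emb in 10.3% and 27.6% against 5.11% and 11.2%, where the intervals of Emb overlap in Tom+ (4.53 to 19.2 and 4.31 to 5.999). By the share of cells, Cxcl13 differed least between the chosen and the other cells of each library.

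To place the cells without the 4 genes, the gate cells were clustered from the 2000 most variable genes, less the 4, through 30 principal components, which gave 14 clusters. High-scoring cells fell in 11 of them, but 269 of the 400 (67.3%) lay in a single cluster of 788 cells, where they were 34.1% of the cells (30.8 to 37.6). This cluster was led by Mfap4, Il33 and Mgp next to the score genes, and 103 of its cells were Tom+. A cluster of 85 cells led by Lyz2 and C1qa held 22 more. A cluster of 149 cells, whose leading genes were Ccl21a, Elane, Cldn5, Gatm, Lyve1 and Clu, held 25. It is called the cluster with Gatm and Clu below. The remaining 84 were scattered, at no more than 5.31% of any cluster. Among the 20 nearest neighbours of a high-scoring cell, 31.1% (Tom+) and 31.6% (Tom-) were high-scoring as well on average, against 1.63% and 4.48% for other gate cells and 5.71% of the gate. The clusters use the same cells, so these shares describe them and test nothing.

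Within the Mfap4-led cluster, few genes differed between the high-scoring and the other cells. Of 5130 genes that reached an average of 20 CPM there, 5 (0.0975%) were at least 2-fold higher in the 34 Tom+ and 235 Tom- high-scoring cells than in the 69 and 450 other cells of the cluster, in both libraries. They were Cpxm2, Cxcl13, Ltbp2, Fmod and Tagln, the first 3 of which are in the score, and Cxcl13 was at 0 UMIs in the other Tom+ cells of the cluster. No gene (0.00%) was lower by that rule. Il6, a cytokine of inflammation, was at 1083 CPM in the high-scoring and 1236 CPM in the other Tom+ cells of the cluster, and at 1164 and 1119 CPM in the Tom- cells. Nfkb1 was at 1113 and 1149 CPM in Tom+ and at 1404 and 1381 CPM in Tom-. Il33, an alarmin cytokine, was at 163 and 193 CPM in Tom+ and 183 and 193 CPM in Tom-. Mgp, an inhibitor of matrix calcification, was at 7593 and 6509 CPM in Tom+ and 6485 and 6154 CPM in Tom-. Mfap4, a microfibril protein, was at 1068 against 432 CPM in Tom+ and at 918 against 577 CPM in Tom-. Cxcl10 lay lower in the high-scoring Tom+ cells of the cluster, at 4.93 against 36.9 CPM, and higher in the Tom- ones, at 122 against 60.4 CPM. Its log2 ratio was -2.91 in Tom+, with a wide interval (-6.01 to -0.94) over 34 high-scoring cells, and 1.02 (0.79 to 1.25) in Tom-. For Il6, Nfkb1, Il33 and Mgp, the differences from the rest of the gate described next were thus shared by the cells of this cluster that missed the 400.

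**Figure D3:**
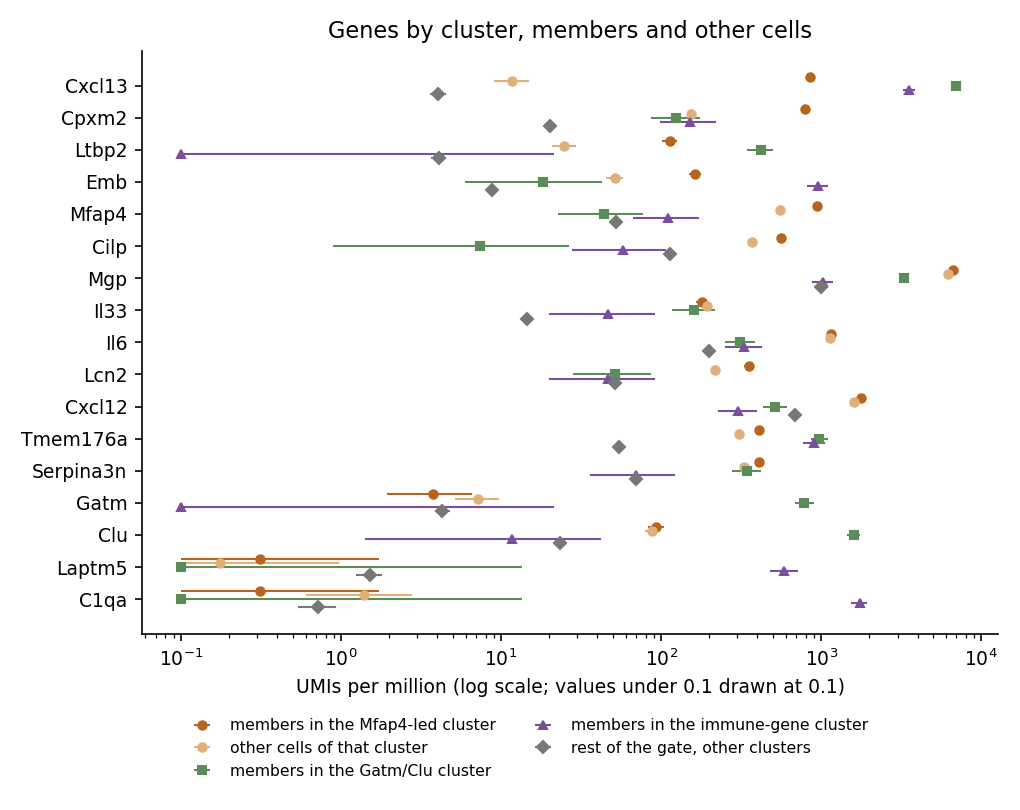
Level of genes (vertical axis) in UMIs per 1000000 (horizontal axis, log scale, values under 0.1 drawn at 0.1) in groups of high-scoring and other cells of both libraries, with 95% Poisson intervals as bars. High-scoring and other cells of the Mfap4-led cluster lie together for Mgp, Il33, Il6 and Cxcl12, while the high-scoring cells with Gatm and Clu and those with immune genes stand elsewhere.

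Against the rest of the gate, summed per library, 5709 genes averaged 20 CPM or more over the 4 sums. Of these, 110 (1.93%) were at least 2-fold higher in high-scoring cells in both libraries and 73 (1.28%) at least 2-fold lower. Without the 22 cells with immune markers the counts were 114 and 74, of which 103 and 67 were the same genes. The median log2 ratio over all genes was -0.14 in Tom+ and -0.17 in Tom-, and values below are to be read against it. Median-of-ratios size factors, which bring these medians to -0.033 and 0.0040, gave 152 higher and 50 lower genes. The 4 score genes are among those higher, by construction. A gene low in the rest can reach the mean of 20 CPM through the high-scoring cells, which favours a call as higher. Many of the Tom+ levels rested on few cells. Of 42 named genes that were 2-fold higher, score genes aside, 22 stayed 2-fold above the rest in Tom+ and 31 in Tom- when the 5 cells richest in the gene were left out of the high-scoring cells, which lowers a level by construction. In Tom+, 14 more (among them Bgn, C2, Cfb, Cpz, Pmepa1, Ptgs2, Rel and Wisp2) stayed above the rest by less than 2-fold, and Acta2, Adamts4, Ccl6, Ccl9, Cxcl10 and Saa3 fell below it.

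**Figure D4:**
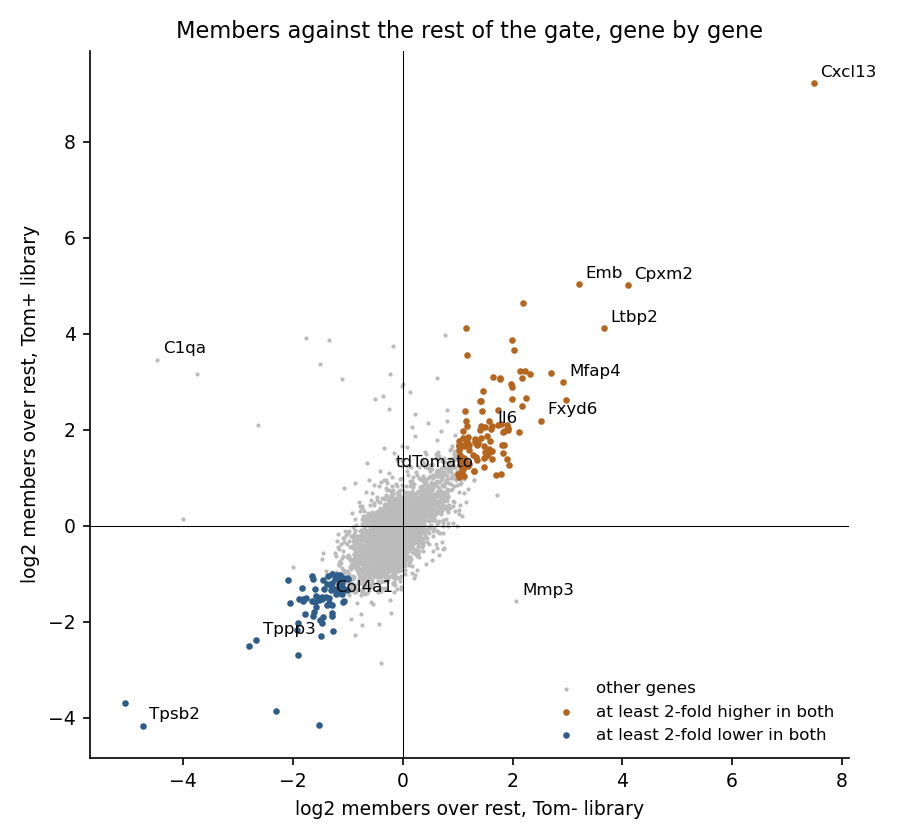
Log2 ratio of high-scoring over other gate cells for each of the 5709 genes, in the Tom- library (horizontal axis) and the Tom+ library (vertical axis). The 110 genes higher and 73 lower by 2-fold in both libraries are coloured; Mmp3 and C1qa lie in the quadrants where the libraries differ in sign.

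Of the genes that averaged 50 CPM or more, Mfap4 came next to the 4 score genes when ranked by the ratio of the library nearer to 0, and several other matrix genes were higher too. In Tom+ alone, ratios above that of Mfap4 were also found for genes of immune cells, such as Cd209f and C1qa, and for Vps37b, Cxcl2 and Tagln. The level of Mfap4 was 585 CPM in the Tom+ high-scoring cells and 735 CPM in the Tom- ones, against 73.7 and 96.9 CPM in the others, with log2 ratios of 2.99 (2.85 to 3.12) and 2.92 (2.85 to 2.99). Fmod (fibromodulin, which shapes collagen fibrils) had ratios of 2.66 and 2.24, and Mgp 1.99 and 1.92. Fbln1, a fibulin of elastic fibres, had 1.83 and 1.43. Wisp2, a secreted Wnt-pathway protein of mesenchymal progenitors, had 2.04 and 1.91, but the former was -0.066 with Cpxm2 left out of the score. Bgn (biglycan) had 1.14 and 1.30. Of 19 measured genes of the latent TGF-β binding and microfibril list other than Ltbp2, 2 were higher by 2-fold (Fbln1 and Mfap4), Loxl2 was lower, and the median ratios were -0.11 and 0.19. Of 8 small leucine-rich proteoglycans, Fmod and Bgn were higher and the medians were -0.096 and 0.21. Of all genes, 1.93% were 2-fold higher and 1.28% 2-fold lower. Fmod, at 11.9 and 24.3 CPM in the rest of the gate, reached the mean of 20 CPM through the high-scoring cells. Fibrillar collagens had medians of -0.61 and -0.31, with Col5a3 lower by 2-fold (-2.31 and -1.50). Of the abundant ones, Col1a1 had 0.35 and 0.59, Col1a2 0.13 and 0.45, and Col3a1 -0.84 and -0.31.

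Inflammatory lists had medians above that of all genes, by unequal amounts. Of 17 genes of NF-κB, the transcription factor of inflammatory signalling, and its targets, 15 were above 0 in both libraries, where 20.2% of all genes were. Of the 17, 3 were 2-fold higher, where 1.93% of all genes were, and the medians were 0.48 and 0.51. Nfkb1 was at 953 against 318 CPM in Tom+ and 1298 against 560 CPM in Tom-. Rel, another subunit, had ratios of 1.17 and 1.10, and Ptgs2, which makes prostaglandin precursors, 1.41 and 1.12. In Tom+, 5 cells held 50.5% of the Ptgs2 UMIs, and the others were at 326 CPM against 226 CPM in the rest of the gate. Il6 was at 699 against 173 CPM in Tom+ and 1030 against 337 CPM in Tom-, with ratios of 2.01 (1.89 to 2.13) and 1.61 (1.56 to 1.66). Il33 had ratios of 2.96 and 1.96. These 2 were the only ones 2-fold higher of 6 measured cytokines, where 1.93% of all genes were. The cytokine medians were -0.017 and 0.52, and Mif, the second most abundant, had -0.37 and 0.029. Of 7 CXC chemokines other than Cxcl13, Cxcl2 and Cxcl10 were 2-fold higher (1.93% of all genes were), and the medians were 0.90 and 0.66. Cxcl2, which attracts neutrophils, was at 397 against 47.1 CPM and 483 against 141 CPM. Cxcl10, an interferon-induced chemokine, was at 152 against 36.6 CPM and 205 against 72.2 CPM. In Tom+ these chemokines came from few cells: the 5 richest of the 78 held 97.1% of the 137 Cxcl10 UMIs and 85.5% of the 358 Cxcl2 UMIs, and the others were at 4.78 and 62.6 CPM, a level that leaving out the richest cells lowers by construction. In Tom- the 5 richest held 48.0% of the Cxcl10 UMIs, and the others were at 109 CPM. Cxcl1, the most abundant, had ratios of 1.04 and 0.66. Of 11 genes of the interferon response, Cxcl10 alone was 2-fold higher (1.93% of all genes were), and the medians were 0.43 and 0.073. The former turned to -0.35 without Cxcl13 in the score and to -0.51 in the high-scoring cells of the Mfap4-led cluster. Of 13 complement and acute phase genes, 5 were 2-fold higher (C4b, C2, Cfb, Saa3 and Lcn2), where 1.93% of all genes were. Their medians were 0.63 and 0.61. In Tom+, the 5 richest cells held 89.2% of the Saa3 UMIs, and the others, at 47.2 CPM, lay below the rest of the gate at 113.5 CPM. C4b was at 1875 against 668 CPM in Tom+ and 2083 against 707 CPM in Tom-. Of 23 genes of the dissociation response, which enzymatic digestion of tissue switches on, 0 were 2-fold higher, and their medians were -0.15 and -0.26. The part of digestion in these results was not tested.

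Of 7 CC chemokines, Ccl6 and Ccl9 were 2-fold higher and Ccl11 lower, where 1.93% and 1.28% of all genes were. Ccl6 and Ccl9, the latter at 6.46 and 2.78 CPM in the rest of the gate, reached the mean of 20 CPM through the high-scoring cells. The count of higher genes is thus not read against 1.93%. Without the cells with immune markers, however, 4 CC chemokines were measured and only Ccl11 passed 2-fold. Ccl6 was at 365 against 21.0 CPM in Tom+ and 7.89 against 3.56 CPM in Tom-. It was at 2052 CPM in the high-scoring cells of the Lyz2-led cluster and at 0.936 CPM in those of the Mfap4-led cluster. Without the cells with immune markers its ratios were 0.042 and -0.67, and Ccl9 fell to a mean of 6.46 CPM, with ratios of 3.16 and 2.16. Ccl11 (eotaxin) was at 268 against 987 CPM in Tom+ and 742 against 1810 CPM in Tom-.

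Promoters of Cxcl13, Cxcl2, Cxcl10 and Il6 were read for the κB motif, the site of NF-κB, as GGGA, any 2 bases, then TTCC, on either strand in the 250 bases before the RefSeq start (GRCm38.p6). They are printed 5′ to 3′ on the gene's strand, with matches in capitals, to set the score gene Cxcl13, which was higher by construction, beside the 3 higher genes that were found to hold the motif. The windows are chr5:95956689-95956938 (plus strand) for Cxcl13, chr5:30012864-30013113 (plus) for Il6, chr5:90903649-90903898 (plus) for Cxcl2 and chr5:92348890-92349139 (minus) for Cxcl10.
Cxcl13: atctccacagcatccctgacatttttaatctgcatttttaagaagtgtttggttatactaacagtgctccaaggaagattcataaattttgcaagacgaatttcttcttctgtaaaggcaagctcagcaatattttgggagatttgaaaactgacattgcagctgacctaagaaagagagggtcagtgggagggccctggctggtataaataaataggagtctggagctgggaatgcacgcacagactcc
Il6: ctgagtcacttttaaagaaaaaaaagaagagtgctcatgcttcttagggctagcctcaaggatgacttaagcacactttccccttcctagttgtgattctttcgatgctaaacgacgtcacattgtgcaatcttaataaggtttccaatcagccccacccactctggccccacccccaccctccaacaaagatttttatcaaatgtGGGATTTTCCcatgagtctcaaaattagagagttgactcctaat
Cxcl2: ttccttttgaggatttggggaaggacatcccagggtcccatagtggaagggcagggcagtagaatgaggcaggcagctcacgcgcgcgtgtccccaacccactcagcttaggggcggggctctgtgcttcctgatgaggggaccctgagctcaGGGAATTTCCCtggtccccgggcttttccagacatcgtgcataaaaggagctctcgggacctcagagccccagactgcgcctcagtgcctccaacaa
Cxcl10: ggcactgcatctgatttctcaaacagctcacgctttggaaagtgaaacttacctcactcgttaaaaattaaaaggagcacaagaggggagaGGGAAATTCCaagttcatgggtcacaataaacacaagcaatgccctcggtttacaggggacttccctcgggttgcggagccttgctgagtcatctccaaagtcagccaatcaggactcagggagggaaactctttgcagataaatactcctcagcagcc
The match begins 44 bases before the start of Il6 and 159 bases before that of Cxcl10. In Cxcl2 matches of both strands overlap, 97 and 96 bases before the start. None lies in the Cxcl13 window or in those of the other score genes. Of 77 higher genes with a window, 3 (3.90%) held the motif, these same 3, and 0 of 50 lower genes did. Of the 4498 genes with a window that averaged 20 CPM or more, 1.40% held it, and of all 27025 genes with a window 1.36%. A match is a run of letters and not a measured site.

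Contractile genes were higher in part. Acta2, the smooth muscle actin of myofibroblasts, was at 49.9 against 11.6 CPM in Tom+ and 72.4 against 21.7 CPM in Tom-, and Tagln at 98.6 against 11.7 CPM and 132 against 29.5 CPM. In Tom+, 5 cells held 93.3% of the 45 Acta2 UMIs and 1 cell 37 of them, and the others, at 3.59 CPM, lay below the rest of the gate. The 5 richest cells held 71.9% of the Tagln UMIs there, and the others were at 30.2 CPM. With Tpm2 and Actn1, these made 4 of 8 measured that were 2-fold higher, where 1.93% of all genes were, and the medians were 0.86 and 0.88. Tpm2 was at 10.4 and 24.0 CPM in the rest of the gate. Acta2 and Tpm2 reached the mean of 20 CPM through the high-scoring cells, so the count of 4 is not read against that share. Myh11, the myosin of differentiated smooth muscle, had ratios of -1.19 and -0.78. Of 13 genes that respond to TGF-β, Ltbp2 not counted, 11 were above 0 in both libraries (20.2% of all genes were). By 2-fold, 2 were higher (Col8a1 and Pmepa1), while Postn had -1.63 and -0.55. Col8a1, at 7.38 and 12.3 CPM in the rest of the gate, reached the mean of 20 CPM through the high-scoring cells, so this count is not read against 1.93%. The medians were 0.94 and 0.49.

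Basement membrane genes stood lower. Of 15 measured, 6 were 2-fold lower (Col4a1, Col4a4, Lamb1, Lamc1, Nid1 and Nid2), where 1.28% of all genes were. In both libraries 13 were below 0, where 55.9% of all genes were, and the medians were -1.25 and -0.97. Col4a1 was at 520 against 1485 CPM in Tom+ and 411 against 1043 CPM in Tom-. Nid1 was at 418 against 1250 CPM and 381 against 809 CPM.

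Of 15 adipogenic genes, 11 were below 0 in both libraries (55.9% of all genes were). By 2-fold, 3 were lower (Fabp4, Plin2 and Ebf2), where 1.28% of all genes were, and none was higher. The medians were -0.48 and -0.53. The most abundant, Cebpb, a transcription factor of early adipogenesis and of inflammation, stood above 0 at 0.90 and 0.52, and Lpl (lipoprotein lipase) had -0.60 and -0.34. Fabp4, the fatty acid binding protein of adipocytes, was at 467 against 1350 CPM in Tom+ and 425 against 1181 CPM in Tom-, and Plin2, which coats lipid droplets, at 94.2 against 232 CPM and 64.7 against 231 CPM. Other strong decreases were in Tppp3 (-2.39 and -2.67), Ebf2 (-1.69 and -1.57), a transcription factor of adipose progenitors, Gpc3 (-1.53 and -1.81) and Txnip (-1.57 and -1.82). Angptl4, an inhibitor of lipoprotein lipase, had -1.53 and -1.89, and Inmt -1.60 and -1.60. Adamts12, Nrep, Vldlr and Nmb were lower too, with ratios from -2.70 to -1.50 over both libraries. Of 10 markers of adipose progenitors, 0 passed 2-fold in both libraries. In both, 6 were below 0 and 2 above 0, near the 55.9% and 20.2% of all genes. Their medians were -0.45 and -0.32. Dcn, the most abundant, had -0.42 and -0.39. Mcpt4 and Tpsb2, proteases of mast cells, are among the 73 genes as well. At least 95.8% of the UMIs of each outside the high-scoring cells lay in 1 cluster of 25 cells, so these 2 describe that cluster.

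**Figure D5:**
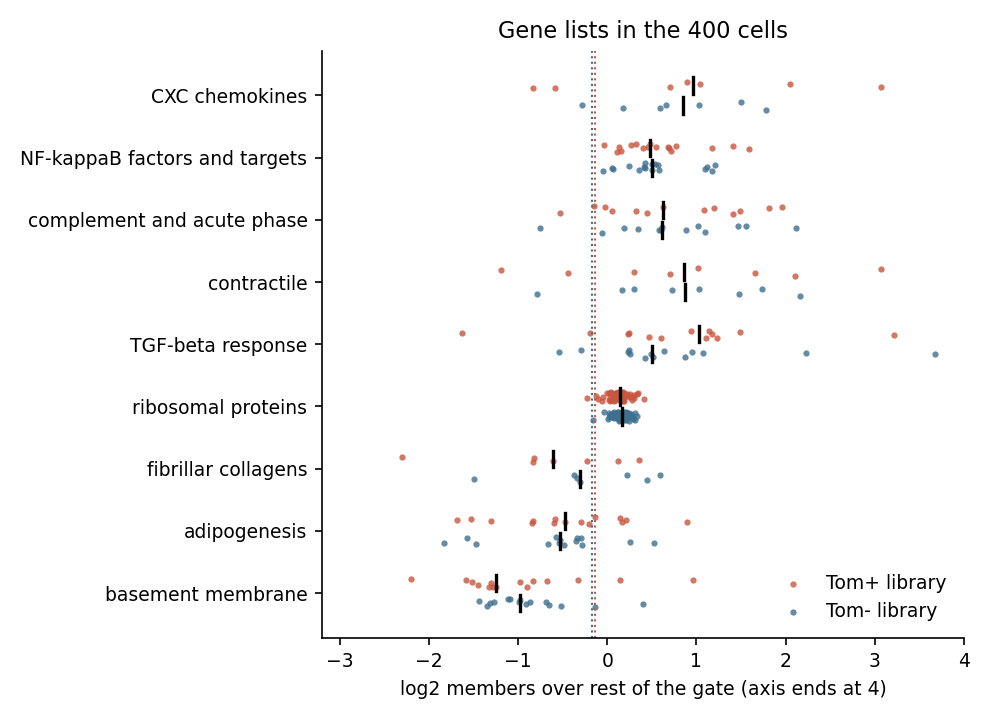
Log2 ratio of high-scoring over other gate cells for each measured gene of 9 lists (points), in the Tom+ and Tom- libraries, with the list medians as bars and the medians of all genes as dotted lines. Of the points, 3 lie beyond 4; the medians of the CXC, NF-κB and complement lists lie right of the dotted lines and those of basement membrane and adipogenesis left of them, with Cxcl13 and Ltbp2 counted in their lists.

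Ribosomal protein genes had medians of 0.14 and 0.17, with 67 of 73 above 0 in both libraries (20.2% of all genes were) and none 2-fold higher. Mitochondrially encoded genes had 0.037 and 0.029. Sfrp1, a Wnt antagonist, was at 828 against 275 CPM and 1099 against 372 CPM. With Dkk3 it made 2 of 7 Wnt genes that were 2-fold higher, and Wnt5a was 2-fold lower (1.93% and 1.28% of all genes were). Dkk3, at 13.1 and 9.7 CPM in the rest of the gate, reached the mean of 20 CPM through the high-scoring cells. Of 5 measured relatives of Cpxm2 in the carboxypeptidase E and D family, Cpz was 2-fold higher and Cpe 2-fold lower (1.93% and 1.28% of all genes were). The medians of the 5 were 0.26 in Tom+ and 0.68 in Tom-. Among monocarboxylate transporter partners, Bsg (basigin), a relative of Emb, had 0.47 and 0.50. Tmem176a and Tmem176b, paired membrane proteins of intracellular vesicles, had the highest r with the score over the pooled gate cells (0.45 and 0.44), and Mfap4 (0.41), Serpina3n (0.39), Mgp (0.38), Bgn (0.38), Fbln1 (0.36) and C4b (0.35) came next. Within a library the values and their order differ: r was 0.40 in Tom+ and 0.44 in Tom- for Tmem176a, 0.34 and 0.44 for Tmem176b, 0.36 and 0.43 for Mfap4, and 0.22 and 0.43 for Bgn. These r are over 7010 cells that share libraries and depth. Tmem176a was at 395 against 53.0 CPM in Tom+ and 427 against 108 CPM in Tom-. Fxyd6, a regulator of the sodium pump, was at 155 against 34.1 CPM and 155 against 27.0 CPM, and Rgs2, an inhibitor of G protein signalling, at 99.7 against 15.9 CPM and 72.1 against 18.3 CPM. Rgs2, without the cells with immune markers, was at 59.0 against 12.4 CPM in Tom+ and 70.9 against 16.4 CPM in Tom-.

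The cells differed by the gene that led their score. Cpxm2 led in 236 cells, Cxcl13 in 80, Emb in 63 and Ltbp2 in 21, and Tom+ cells made up 18.6%, 17.5%, 23.8% and 23.8% of these. Of the 22 cells with immune markers, 13 were led by Emb, 6 by Cxcl13 and 3 by Cpxm2. Within the Tom- library and without these cells, Mfap4 was at 1188 CPM (1141 to 1236) in Cpxm2-led cells, 57.4 CPM (42.6 to 75.6) in Cxcl13-led cells and 97.9 CPM in the rest of the gate. Fxyd6 was at 255, 13.8 and 27.3 CPM in the same order. Fmod was at 168, 45.9 and 24.5 CPM and Mgp at 7723, 1794 and 1508 CPM. All 4 were highest in Cpxm2-led cells. In Cxcl13-led cells, Mfap4 and Fxyd6 lay below the rest of the gate, Fmod (32.8 to 62.5) lay above it, and Mgp (1706 to 1885) lay above it. Lcn2, an antimicrobial acute phase protein, had the other order, at 267, 805 and 89.9 CPM. Cxcl12, a chemokine that holds lymphocytes and progenitors, was at 1054, 2527 and 814 CPM, and Ccl2, which attracts monocytes, at 1754, 3217 and 1447 CPM. Tmem176a (345, 601 and 105 CPM) and Serpina3n (334, 458 and 104 CPM) were above the rest in both. Cxcl12 was also at 2484 CPM in Emb-led and 2306 CPM in Ltbp2-led cells, so its level was not particular to Cxcl13-led cells. Ccl2 was at 1904 and 1180 CPM in these. Tppp3, Ebf2, Gpc3 and Txnip lay below the rest of the gate in all 4 groups.

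Cxcl13-led cells themselves came in more than 1 kind. In the Mfap4-led cluster, 34 of them (2 Tom+) had Cxcl13 at 5405 CPM with Lcn2 at 704 CPM and Cxcl12 at 3490 CPM. In the cluster with Gatm and Clu, 15 of them (3 Tom+) had Cxcl13 at 9966 CPM, Lcn2 at 57.7 CPM and Cxcl12 at 567 CPM. These carried Gatm, the first enzyme of creatine synthesis, at 1065 CPM (16.1 CPM in the former) and Clu (clusterin, an extracellular chaperone) at 1652 CPM (60.5 CPM). Over all 25 high-scoring cells of that cluster, a Gatm UMI was found in 76% and a Clu UMI in 92%, and Ltbp2 was at 418 CPM. The class II antigen genes H2-Ab1 and H2-Eb1 were at 315 and 301 CPM there, against 4.68 CPM for each in the high-scoring cells of the Mfap4-led cluster. Acta2 was at 385 CPM against 60.2 CPM. The other cells of the cluster with Gatm and Clu had Acta2 at 541 CPM, H2-Ab1 at 216 CPM, H2-Eb1 at 257 CPM, Clu at 1433 CPM and Gatm at 255 CPM. Some other cells of this cluster had endothelial genes, with Pecam1 at 67.2 CPM and Ccl21a at 384 CPM, but among its 25 high-scoring cells Pecam1, Cldn5 and Ccl21a were at 0 UMIs, and Dcn was at 17406 CPM. No name is given to either kind.

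The overlap with other groups of 400 cells, taken by the same kind of score for other gene sets, differed by set. Vdr, Thbd and Adamts9 shared 49 cells (12.3%), Tnfrsf11b, Has1 and Sfrp4 28 (7%), and Ptgds, Pi15, Eln and Pdlim3 25 (6.25%), where the high-scoring cells are 5.71% of the gate. Smpd3, Chst1 and Pcsk6 shared 3 (0.75%), and their genes Smpd3 and Pcsk6 were 2-fold lower in high-scoring cells.

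The sort used the reporter, so its RNA checks the labels. The level of tdTomato was 318 CPM in the high-scoring cells of the Tom+ library and 11.4 CPM in those of Tom-, which gives a log2 ratio of 4.799 (4.33 to 5.30), and at 149 and 13.6 CPM in the other gate cells (3.46, 3.34 to 3.58). Of the 287 tdTomato UMIs of the 78 Tom+ high-scoring cells, 56.8% lay in 5 cells, and the others were at 146 CPM, no higher than the other Tom+ gate cells. Without the cells with immune markers it was at 277 and 11.6 CPM (4.58). After thinning to 5000 UMIs, a tdTomato UMI was found in 25.4% (15.8 to 37.1) of Tom+ high-scoring cells and 14.5% (13.2 to 15.9) of the other Tom+ gate cells, and in 4.84% and 6.15% in Tom-. Before thinning the shares were 37.2% and 25.0% in Tom+ and 11.2% and 12.95% in Tom-. Cdkn2a, the gene of p16 and Arf, was at 16.6 against 4.45 CPM in Tom+ (1.90, 1.03 to 2.66) and 7.34 against 3.88 CPM in Tom- (0.92, 0.28 to 1.51), which is below the limit of 20 CPM set for the other genes. The Tom+ value rests on 15 UMIs in 9 cells, of which 5 held 73.3%, and without these 5 it was 4.71 CPM. In Tom- it rests on 27 UMIs in 17 cells, of which 5 held 55.6%, and without these 5 it was 3.31 CPM.

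Of the 5709 genes, 148 (2.59%) were at least 2-fold higher in Tom+ than in Tom- high-scoring cells and 42 (0.736%) lower, against 42 (0.736%) and 48 (0.841%) in the other gate cells. Without the cells with immune markers 88 were higher and 43 lower. Of the genes that averaged 50 CPM or more over the high-scoring cells of both libraries, those with the largest ratios were C1qa, Cd209f, C1qc, Pf4 and Lyz2, genes of macrophages, and 298 of the 299 C1qa UMIs and 577 of the 580 Lyz2 UMIs of Tom+ high-scoring cells lay in cells with immune markers. C1qa and Lyz2 are among the markers that define those cells. With those cells left out and the same limit, tdTomato, Cd74, Chchd10, Igkc and Ighm had the largest ratios. Chchd10 then had 2.09 in high-scoring and 1.83 in other cells, Igkc 1.80 and 1.55, and Ighm 1.72 and 1.65, so they were higher in Tom+ cells of both kinds. Of the genes lower in Tom+, Mmp3 (stromelysin, a matrix protease) stood at 42.1 CPM in the high-scoring cells of Tom+ and 264 CPM in those of Tom-, a ratio of -2.65 (-3.16 to -2.18), while in the other gate cells it was 0.9962 (0.93 to 1.06). Hp (haptoglobin) had -1.57 in high-scoring and -1.07 in other cells, Lcn2 -1.50 and -1.34, Ccl11 -1.47 and -0.88, and Adamts4 -1.37 and -1.12, so these 4 were lower in Tom+ cells of both kinds. The Tom+ values rest on 78 cells and 902385 UMIs, and the Tom- values on 322 cells and 3676311 UMIs.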

How the data were processed

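The authors sorted CD31- CD45- cells of gWAT into Tom+ and Tom- fractions and made 1 library of each with 10x Genomics 3′ v3.1 reagents. Per the labels, the processing used Cell Ranger 3.0.2 and mm10. The deposited matrices hold whole UMI counts for each gene in each barcode, not normalized, with 61119807 in 5566 Tom+ and 96872394 in 11838 Tom- barcodes over 31054 genes, tdTomato included. Here the UMIs of high-scoring and of other gate cells were added up within a library and expressed per 1000000. Ratios are log2 of these levels, and genes were read at a mean of at least 20 CPM and a 2-fold difference in both libraries. A sum of 0 was set to 3 counts, which makes the ratio a bound. Intervals are exact Poisson (levels), Clopper-Pearson (shares) and conditional binomial (ratios). The chosen cells and the 47 gene lists were set with earlier results of these data known.

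Genes were named by rule: the score genes, tdTomato and Cdkn2a, the 15 highest and 10 lowest ratios at a mean of at least 50 CPM, list genes past 2-fold with the 2 most abundant of each list, 5 extremes each way between libraries, and the 8 highest correlations with the score. Genes of the cluster comparisons and the others named, such as Mcpt4, Tpsb2, Myh11 and Postn, were chosen after their values were seen. Clusters were made with scanpy 1.11.5 and igraph 0.11.9 (Leiden, resolution 1). Doublets were not removed for the results above. Scrublet called 2 of 3524 Tom+ and 122 of 6717 Tom- cells, so that it cannot be taken to have worked in Tom+, and none was a high-scoring cell. The ratio calls were tested on simulated counts, and the outcome is not reported here. The alternatives changed the number of chosen cells, the genes of the score, depth, scaling, doublets, the filter on low counts and the cells left out. Every deposited column was used (0 unmapped). The summed level of the B and plasma cell list is not reported here.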

Additional observations from a re-analysis of the deposited data

Results flagged for a closer look

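In these results the libraries lay on opposite sides of 0, each by at least 2-fold and beyond its counting interval. The differences between libraries were not tested, since each group has 1 library. Mmp3 had a log2 ratio of high-scoring over other gate cells of -1.58 in Tom+ and 2.06 in Tom-. Its UMIs came from 12 Tom+ and 95 Tom- high-scoring cells, none of the Tom+ UMIs lay in cells with immune markers, and without those cells the ratios were -1.39 and 2.06.

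The other 5 are genes of macrophages. C1qa had 3.46 in Tom+ and -4.48 in Tom-, C1qb 3.36 and -1.51, and C1qc 3.15 and -3.75. Lyz2 had 2.11 and -2.63, and Lyve1, which lymphatic endothelium also expresses, 3.27 and -1.51. In the Tom+ library, 98.9% of the UMIs of the 14 macrophage and T cell markers in high-scoring cells lay in the 13 cells with immune markers, which these UMIs define. Without such cells C1qa was at 1.28 CPM and Lyz2 at 3.85 CPM in Tom+ high-scoring cells. C1qa, C1qb and Lyz2 are among the 14 markers, so their fall is by construction. The ratios of C1qb, C1qc and Lyz2 then had intervals that include 0, as did that of C1qa in Tom+. Lyve1 still lay on opposite sides of 0, at 1.90 (0.41 to 3.09) in Tom+ and -1.50 (-2.46 to -0.68) in Tom-, on 6 and 12 UMIs in high-scoring cells.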

How the results depend on the processing

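No paired analysis was possible because each group has 1 library. Taking 800 cells gave 44 genes lower, and the score without Cpxm2 gave 41 lower and a tdTomato ratio of 5.31 between Tom+ and Tom- high-scoring cells. With each score gene z-scaled that ratio was 5.45. With no filter on the mean, 538 genes were higher and 260 lower. Keeping only the high-scoring cells of the Mfap4-led cluster, a setting chosen after the data were seen like the next 2, gave 117 genes lower, a Tom+ share of 12.6% and a tdTomato ratio of 5.41. Leaving out cells with immune markers, or cells with barcodes listed in both libraries, moved neither count of genes between high-scoring and other cells by over 1.5 times and neither the Tom+ share nor the tdTomato ratio beyond its counting interval. Without the cells with immune markers, the genes 2-fold higher in Tom+ than in Tom- high-scoring cells fell from 148 to 88. The 2 counts, the share and the tdTomato ratio also stayed within these limits with 200 cells, the score without Cxcl13, Ltbp2 or Emb, thinning, Scrublet, and, for the counts and the ratio, median-of-ratios factors or per-cell means. For the genes and lists whose direction turned, the cause was not tested. Wisp2 was at -0.066 in Tom+ without Cpxm2 in the score, and there the carboxypeptidase list had a median of -0.35 in Tom+ and the macrophage list 0.18 in Tom-. The interferon list fell to -0.35 in Tom+ without Cxcl13 and to -0.51 in the Mfap4-led cluster, the Wnt list to -0.11 in Tom+ without Emb, and Lyz2 between libraries to -0.10 without cells with immune markers. Over all alternatives, 1 of 700 ratios of high-scoring over other cells, 1 of 128 ratios between libraries and 5 of 824 list medians (at least 0.1 from 0 on both sides) turned, and 304 and 33 of the ratios moved beyond their counting interval. The 902385 UMIs of the 78 Tom+ high-scoring cells limit the precision for genes near 20 CPM.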
